A study of Mus musculus with 16 samples.

Results

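AP-1 is the transcription factor complex built from proteins of the Fos and Jun families and their relatives, and the genes described here are Fos, Fosb, Fosl1, Fosl2, Jun, Junb, Jund and Atf3. They were chosen by name from the array annotation, with earlier results of these data known. They are 8 of the 34781 gene names on the array, and all 8 were among the 25397 genes tested. RNA came from primary alveolar type II cells of the lungs of C57BL/6 mice, the cells that make surfactant and renew the alveolar epithelium. The groups were hyperoxia (85% O2) for 24 h, normoxia (21% O2) for 24 h, hyperoxia for 6 h and normoxia for 6 h, with 4 one-colour arrays each and 16 in all. The labels do not say whether the arrays of a group came from separate animals or cultures, so the p-values measure only the spread between these samples, which may be technical. No age, sex or pooling of animals is given in the sources used here.

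Fos proteins do not form stable pairs with each other and bind DNA as heterodimers with Jun proteins, whereas Jun proteins also pair among themselves, and Atf3 pairs with Jun proteins or with itself. Fos, Fosb, Jun, Junb and Atf3 are immediate-early genes, which are transcribed within minutes of a growth factor or stress signal from transcription factors already present, while Fosl1 and Fosl2 follow later and are themselves AP-1 targets. MAP kinases act on the complex at both levels, through the factors on the Fos and Jun promoters and by phosphorylating the proteins. In lung epithelium AP-1 is known for its part in the response to oxidants and in repair.

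Promoters of 5 of the 8 genes are shown because their proximal windows hold letters of elements that the family is known to be regulated through. RefSeq sequences of GRCm38.p6 were at hand for 7 members and none was for Fosl1. Each run is the 250 bases before the annotated start, 5′ to 3′, and the capitals mark matches. Fos, Fosb and Junb hold TGACG, the core of the cyclic AMP response element. Jun holds TGACATCA, the AP-1-like element through which Jun is known to act on its own gene. Atf3 holds that core on the opposite strand (CGTCA) and TTGCATCA, the opposite strand of TGATGNAA, the composite C/EBP-ATF element of integrated stress response genes.
Fos (chr12:85473640-85473889, plus strand): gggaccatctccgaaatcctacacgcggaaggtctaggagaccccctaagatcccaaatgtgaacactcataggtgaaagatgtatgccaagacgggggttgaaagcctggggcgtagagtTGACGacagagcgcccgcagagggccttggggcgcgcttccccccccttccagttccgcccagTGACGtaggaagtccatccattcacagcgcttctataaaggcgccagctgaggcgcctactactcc
Fosb (chr7:19310046-19310295, minus strand): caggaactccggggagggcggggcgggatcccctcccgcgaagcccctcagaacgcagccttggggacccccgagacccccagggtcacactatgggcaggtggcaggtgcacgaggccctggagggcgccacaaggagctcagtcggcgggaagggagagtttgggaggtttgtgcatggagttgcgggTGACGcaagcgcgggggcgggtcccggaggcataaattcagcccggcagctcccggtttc
Junb (chr8:84978749-84978998, minus strand): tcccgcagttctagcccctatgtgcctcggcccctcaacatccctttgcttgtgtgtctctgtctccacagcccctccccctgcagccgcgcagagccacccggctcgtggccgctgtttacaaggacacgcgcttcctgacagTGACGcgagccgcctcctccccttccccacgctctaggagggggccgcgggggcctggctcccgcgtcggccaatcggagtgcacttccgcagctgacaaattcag
Jun (chr4:95052223-95052472, minus strand): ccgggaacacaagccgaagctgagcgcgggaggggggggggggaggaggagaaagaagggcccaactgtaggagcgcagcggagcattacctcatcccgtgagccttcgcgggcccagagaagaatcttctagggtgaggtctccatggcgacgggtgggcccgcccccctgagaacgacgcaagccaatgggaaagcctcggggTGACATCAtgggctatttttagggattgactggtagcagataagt
Atf3 (chr1:191183334-191183583, minus strand): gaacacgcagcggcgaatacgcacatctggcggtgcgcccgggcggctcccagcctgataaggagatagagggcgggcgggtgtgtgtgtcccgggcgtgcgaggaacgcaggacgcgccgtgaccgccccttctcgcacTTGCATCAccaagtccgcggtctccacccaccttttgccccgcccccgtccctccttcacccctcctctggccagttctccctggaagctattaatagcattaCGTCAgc
Counted back from the start, the TGACG cores began at base -129 and base -66 in Fos, at -60 in Fosb, at -106 in Junb and at -7 in Atf3, where the composite element began at -110. The Jun element lay at -45 to -38. Both strands of these 250 bases were searched, and sites further from the start were not. Of 32851 promoter windows of the same length, 17.8% held TGACG, 2.93% held TGACATCA and 3.45% held TGATGNAA. None of the 7 windows held TGACTCA, the AP-1 site itself (4.46% of all windows), the full element TGACGTCA (1.55%) or the CArG box bound by the serum response factor SRF (1.47%). The match to TGACG is part of TGACGTCA wherever that occurs. A match is a description of these letters.

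Values are log2 signal relative to the 75th percentile of the signals of the same array, so a value of 0 is a signal at that percentile, and a difference of 1 between groups is a doubling. The share of probes well above background ran from 53.6%, on normoxia 24 h replicate 3, to 69.0%, and the 75th percentile of the raw signals was 556 to 801 on the 24 h arrays and 899 to 1021 on the 6 h arrays. All 8 genes were well above background on all 16 arrays. Fos is read by a probe printed on 10 spots, whose spread within an array was 0.03 to 0.12 (SD, log2), and Fosl2 by 2 probes. Levels were not compared between genes, since probes differ in brightness. Genes rose or fell where the adjusted p of limma, over all 25397 genes of a comparison, was under 0.05, fold changes carry an SE, and means an SD over n = 4 arrays. The 24 h arrays shared a slide and scan, and the 6 h arrays shared another, so that time and slide cannot be told apart here. Hyperoxia held the second row of each slide and normoxia the first, and the effect of oxygen cannot be told apart from that of the row.

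The label of the cells was checked against 12 type II markers. In the hyperoxia groups 11 of them were well above background on all 4 arrays, as in normoxia at 6 h, with 10 in normoxia at 24 h, and Slc34a2 was above background on none. Of 8 fibroblast and smooth muscle markers, 8 were well above background on all arrays of every group, as were 7 of 7 macrophage markers outside normoxia at 24 h, where 5 were. The mean over the fibroblast and smooth muscle list was 5.54 to 6.04 on hyperoxia arrays and 5.35 to 5.94 on normoxia arrays at 24 h. At 6 h it was 5.21 to 5.67 and 5.20 to 5.71. The mean over the type II list was at most 0.99, on a hyperoxia array at 6 h. Probes differ in brightness, so these means do not give shares of cells, and the purity of the cells was not tested. In bulk RNA, more cells of a type and more RNA per cell cannot be told apart.

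After 24 h of hyperoxia 5 of the 8 AP-1 genes were higher than in normoxia and none was lower. Fos rose 1.85-fold, Fosl1 1.72-fold, Fosb 1.40-fold, Junb 1.38-fold and Fosl2 1.20-fold. Jun, Jund and Atf3 did not pass, and no difference between the families was tested. Among all genes 28.3% passed in this comparison, 15.5% as higher and 12.8% as lower. The median log2 fold change of the 8 genes was 0.44, against 0.01 over all genes tested.

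Fos, the founding member and a short-lived immediate-early gene, measured -0.25, -0.11, -0.38 and -0.24 in hyperoxia at 24 h, against -1.07, -0.97, -1.40 and -1.08 in normoxia at 24 h. Every hyperoxia array lay well above every normoxia array. The log2 fold change was 0.88 ± 0.11 (limma adjusted p = 3.94e-05), and pairs of the same replicate number differed by 0.82 to 1.02. Of all genes tested 96.1% had a lower log2 fold change in this comparison.

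Fosl1, which encodes Fra-1, a Fos protein without the strong activation domain of Fos, measured 2.53, 2.45, 2.15 and 2.29 in hyperoxia at 24 h, against 1.57, 1.31, 1.66 and 1.77 in normoxia at 24 h. The groups did not overlap, and their spread was similar (SD 0.17 in hyperoxia and 0.20 in normoxia). This was a log2 fold change of 0.78 ± 0.17 (limma adjusted p = 0.00281), and the pairs differed by 0.96, 1.14, 0.49 and 0.52.

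Fosb, whose protein resembles Fos and whose short splice form is stable, measured 0.40, 0.54, 0.10 and 0.44 in hyperoxia at 24 h, against -0.15, 0.03, -0.43 and 0.09 in normoxia at 24 h. The lowest hyperoxia array, replicate 3, stood just above the highest normoxia array. The log2 fold change of 0.48 ± 0.14 (limma adjusted p = 0.0188) was no longer past the threshold when hyperoxia replicate 2 was left out (0.43, adjusted p = 0.0574), nor when normoxia replicate 3 was (0.38, adjusted p = 0.0622).

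Fosl2, which encodes Fra-2, measured 4.03, 3.81, 3.92 and 3.78 in hyperoxia at 24 h, against 3.80, 3.56, 3.53 and 3.58 in normoxia at 24 h. The groups overlapped through normoxia replicate 1, the only normoxia array above 3.58. This gave a log2 fold change of 0.26 ± 0.08 (limma adjusted p = 0.0237), with pairs higher by 0.19 to 0.38. The call ended without hyperoxia replicate 1 (0.21, adjusted p = 0.0812) or 3 (0.25, adjusted p = 0.0592). It also ended without normoxia replicate 2 (0.24, adjusted p = 0.0612), 3 (0.23, adjusted p = 0.0675) or 4 (0.25, adjusted p = 0.0573).

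Junb, an immediate-early Jun protein that activates AP-1 sites more weakly than Jun, measured 0.51, 0.72, 0.62 and 0.55 in hyperoxia at 24 h, against -0.13, 0.18, 0.31 and 0.19 in normoxia at 24 h. All hyperoxia arrays were above all normoxia arrays, with a log2 fold change of 0.46 ± 0.11 (limma adjusted p = 0.00649).

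Jun, the Jun protein that the stress kinases of the JNK group phosphorylate, measured 4.23, 4.52, 4.60 and 4.62 in hyperoxia at 24 h, against 4.03, 3.97, 4.35 and 3.97 in normoxia at 24 h. The groups overlapped through hyperoxia replicate 1 and normoxia replicate 3. The log2 fold change of 0.41 ± 0.15 did not pass (limma adjusted p = 0.0596, 95% interval 0.08 to 0.74). With the replicate number within each time as a block, the same value passed (0.41, adjusted p = 0.0427), as it did when hyperoxia replicate 1 was left out (0.50, adjusted p = 0.0361) and when normoxia replicate 3 was (0.50, adjusted p = 0.0327).

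Jund, the Jun protein that many resting cells hold, measured 4.73, 4.63, 4.57 and 4.64 in hyperoxia at 24 h, against 4.40, 4.55, 4.54 and 4.49 in normoxia at 24 h. The groups did not overlap, but the gap was small, and the log2 fold change of 0.15 ± 0.09 did not pass (limma adjusted p = 0.259, 95% interval -0.05 to 0.35). Together with Fos, Fosb, Fosl1 and Junb it made 5 of 8 genes without overlap, and 33.2% of all genes had none.

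Atf3, a stress-induced member that represses as a homodimer, measured 1.72, 1.44, 1.76 and 1.94 in hyperoxia at 24 h, against 1.53, 1.44, 1.37 and 1.84 in normoxia at 24 h. The ranges overlapped over most of their length, and a log2 fold change of 0.17 ± 0.12 did not pass (limma adjusted p = 0.311, 95% interval -0.08 to 0.42).

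**Figure D1:**
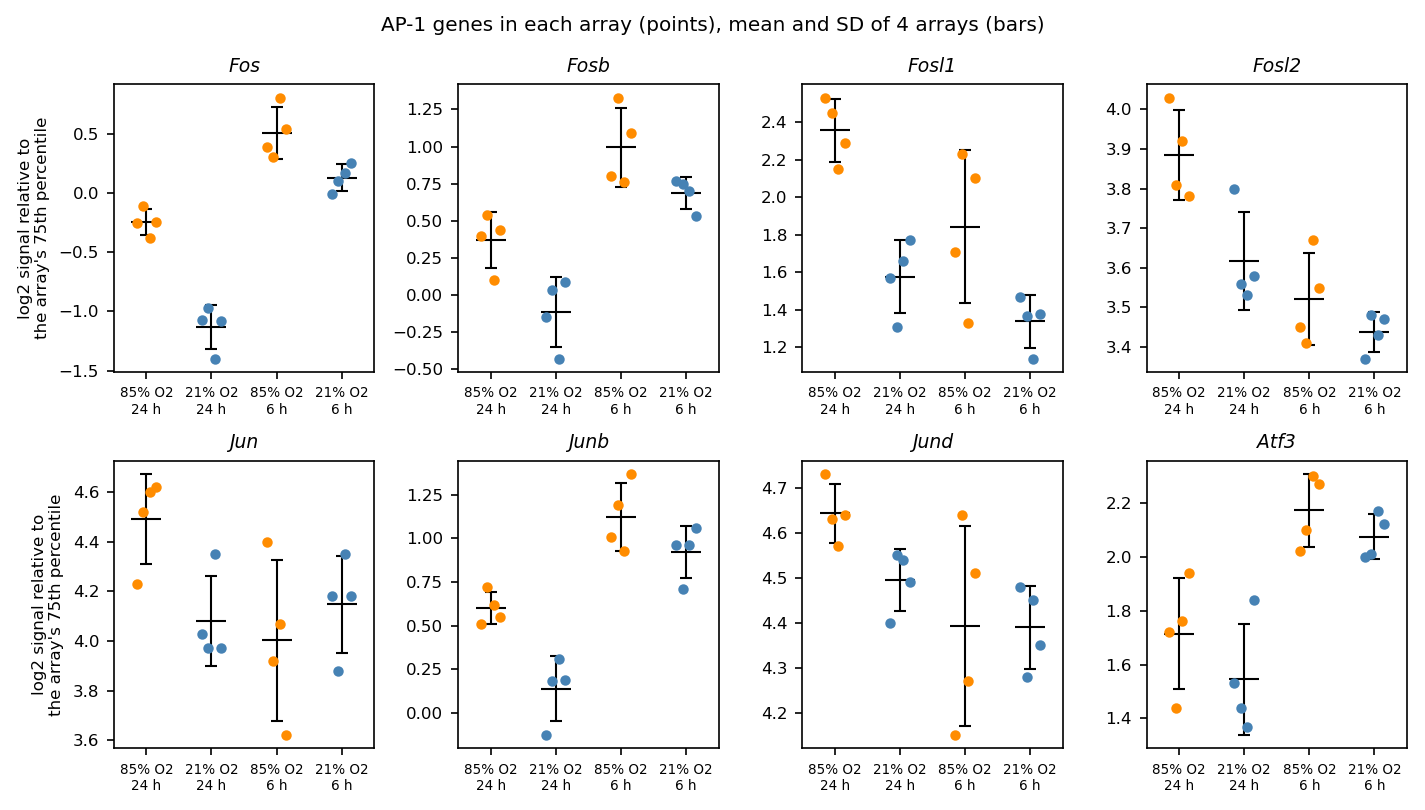
Log2 signal relative to the array's 75th percentile (y axis) of the 8 AP-1 genes in hyperoxia (85% O2, orange) and normoxia (21% O2, blue) at 24 h and at 6 h. Points are arrays and bars the mean and SD of 4 arrays; Fos is the gene in which all 4 groups lie apart, and each panel has its own scale.

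After 6 h of hyperoxia none of the 8 genes passed in limma, and 3 of them, Fos, Fosb and Fosl1, had an unadjusted p under 0.05, as did 7.37% of all genes. After adjustment 0.327% of all genes passed. The median log2 fold change of the 8 genes was 0.15, against 0.01 over all genes tested.

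Fos measured 0.39, 0.31, 0.81 and 0.54 in hyperoxia at 6 h, against -0.01, 0.10, 0.17 and 0.26 in normoxia at 6 h. It was the only one of the 8 genes whose groups did not overlap at 6 h, where 4.32% of all genes had no overlap. Its log2 fold change of 0.38 ± 0.11 did not pass (limma adjusted p = 0.303).

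Fosl1 measured 1.71, 2.23, 1.33 and 2.10 in hyperoxia at 6 h, against 1.47, 1.37, 1.14 and 1.38 in normoxia at 6 h. Replicates 2 and 4 of hyperoxia were high and replicate 3 lay within the normoxia range. A log2 fold change of 0.50 ± 0.17 did not pass (limma adjusted p = 0.409), and it passed without hyperoxia replicate 3 (0.67, adjusted p = 0.0466).

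Fosb measured 0.80, 1.33, 0.76 and 1.09 in hyperoxia at 6 h, against 0.77, 0.75, 0.70 and 0.53 in normoxia at 6 h, a log2 fold change of 0.31 ± 0.14 (limma adjusted p = 0.663). Here too hyperoxia replicates 2 and 4 were high, while replicate 1 stood just above the highest normoxia array and replicate 3 just below it. Junb, with 1.01, 1.19, 0.93 and 1.37 in hyperoxia at 6 h against 0.96, 0.71, 0.96 and 1.06 in normoxia at 6 h, had the same high arrays and a log2 fold change of 0.20 ± 0.11 (limma adjusted p = 0.776).

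Jun measured 4.40, 3.92, 4.07 and 3.62 in hyperoxia at 6 h, against 4.18, 3.88, 4.35 and 4.18 in normoxia at 6 h. The hyperoxia arrays spread on both sides of the normoxia arrays, and the log2 fold change of -0.15 ± 0.15 (limma adjusted p = 0.934) was the only negative one of the 8. Fosl2 lay between 3.41 and 3.67 in hyperoxia and between 3.37 and 3.48 in normoxia, Jund between 4.15 and 4.64 in hyperoxia and between 4.28 and 4.48 in normoxia, and Atf3 between 2.02 and 2.30 in hyperoxia and between 2.00 and 2.17 in normoxia. Their log2 fold changes were 0.08 ± 0.08, 0.0032 ± 0.09 and 0.10 ± 0.12 (limma adjusted p = 0.92, 0.999 and 0.949), with 95% intervals that lay within -0.20 to 0.35.

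**Figure D2:**
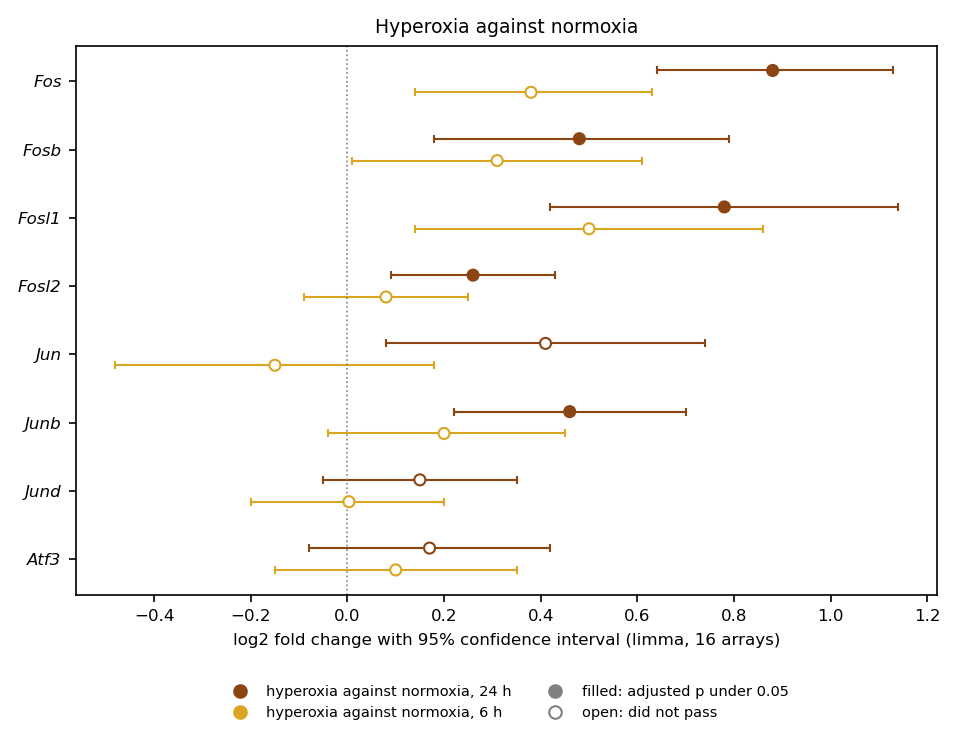
Log2 fold changes of hyperoxia over normoxia (x axis, with 95% confidence intervals) of the 8 genes at 24 h (dark) and 6 h (light), from the limma fit of all 16 arrays. Filled points passed the adjusted threshold: 5 genes at 24 h and 0 at 6 h.

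Whether the hyperoxia effect differed between the times was tested as an interaction, the effect at 24 h minus that at 6 h. None of the 8 genes passed, and 12.3% of all genes did. In limma 2 of the 8 had an unadjusted p under 0.05, as did 25.3% of all genes. Fos came closest, with a difference of 0.50 ± 0.16 (limma adjusted p = 0.0583), and with the replicate number within each time as a block it passed (0.50, adjusted p = 0.0178). It also passed without hyperoxia 6 h replicate 3 (0.60, adjusted p = 0.0102) or normoxia 24 h replicate 2 (0.56, adjusted p = 0.047). Jun had the largest difference, 0.56 ± 0.22 (limma adjusted p = 0.119), which passed without hyperoxia 6 h replicate 1 (0.69, adjusted p = 0.0378). For the other 6 genes the difference was 0.07 to 0.28 with adjusted p of 0.348 or more. A pass at 24 h and none at 6 h therefore does not show a change of the effect for Fosl1, Fosb, Junb or Fosl2, and the interval for Fosl1 was -0.23 to 0.79.

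Over time the 8 genes fell into 2 groups in hyperoxia. Fos, Fosb, Junb and Atf3 were lower at 24 h than at 6 h, and Fosl1, Fosl2, Jun and Jund were higher, while 25.0% of all genes passed as higher, 27.3% as lower and 52.3% in all. The comparison with 6 h shares the slide limit given above.

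Fos changed by -0.76 ± 0.11 in hyperoxia (limma adjusted p = 9.01e-05), with all 24 h arrays below all 6 h arrays. Fosb, Junb and Atf3 changed by -0.63 ± 0.14, -0.53 ± 0.11 and -0.46 ± 0.12 (limma adjusted p = 0.00207, 0.00147 and 0.0047), also without overlap. The highest Atf3 array at 24 h, at 1.94, lay just below the lowest at 6 h, at 2.02.

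Fosl2 was higher by 0.36 ± 0.08 (limma adjusted p = 0.00178) without overlap. Fosl1 and Jun were higher by 0.51 ± 0.17 and 0.49 ± 0.15 (limma adjusted p = 0.0197 and 0.016), with overlap, and Jund by 0.25 ± 0.09 (limma adjusted p = 0.0364). The Fosl1 call ended without hyperoxia 24 h replicate 1 (0.45, adjusted p = 0.0567), hyperoxia 6 h replicate 1 (0.47, adjusted p = 0.0513) or hyperoxia 6 h replicate 3 (0.34, adjusted p = 0.0549), and that of Jun without hyperoxia 6 h replicate 4 (0.36, adjusted p = 0.0566). For Jund the call ended without hyperoxia 24 h replicates 1, 2 or 4 (0.22, 0.25 and 0.25, adjusted p = 0.0933, 0.0594 and 0.0627) and without hyperoxia 6 h replicates 1 or 3 (0.17 and 0.21, adjusted p = 0.12 and 0.087).

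In normoxia the same 4 genes were lower at 24 h than at 6 h and none was higher, against 20.6% of all genes higher, 23.5% lower and 44.1% in all. Fos changed by -1.26 ± 0.11 (limma adjusted p = 5.79e-06), a signal 2.39-fold lower at 24 h, and only 4.06% of all genes had a lower log2 fold change. Fosb, Junb and Atf3 changed by -0.80 ± 0.14, -0.78 ± 0.11 and -0.53 ± 0.12 (limma adjusted p = 0.000549, 0.000128 and 0.00242). Fosl1 (0.24 ± 0.17), Fosl2 (0.18 ± 0.08), Jun (-0.07 ± 0.15) and Jund (0.10 ± 0.09) did not pass (limma adjusted p = 0.27, 0.0779, 0.734 and 0.397). In each oxygen group 5 of 8 genes had no overlap between times (Fosl2 and the 4 that fell), where 45.3% of all genes in hyperoxia and 44.1% in normoxia had none.

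Scaling bears on these comparisons over time. With arrays scaled to their median, the median of all genes stood at 0.20 in hyperoxia and 0.19 in normoxia, and 71.8% and 74.8% of the calls were higher, against 47.8% and 46.7% here. With normexp background correction 62.9% and 70% were higher. Median scaling shifts all genes of an array alike, so values relative to the shifted median are by construction close to those above, as for Fos (-0.74 in hyperoxia and -1.24 in normoxia). Taken as they stand under median scaling, the changes of Fosl1, Fosl2 and Jund in normoxia were 0.44, 0.39 and 0.31 and passed (limma adjusted p = 0.0343, 0.00168 and 0.0155). Atf3 in hyperoxia was at -0.24 and did not pass (adjusted p = 0.114), and Jun in normoxia was at 0.14, against -0.07 here.

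**Figure D3:**
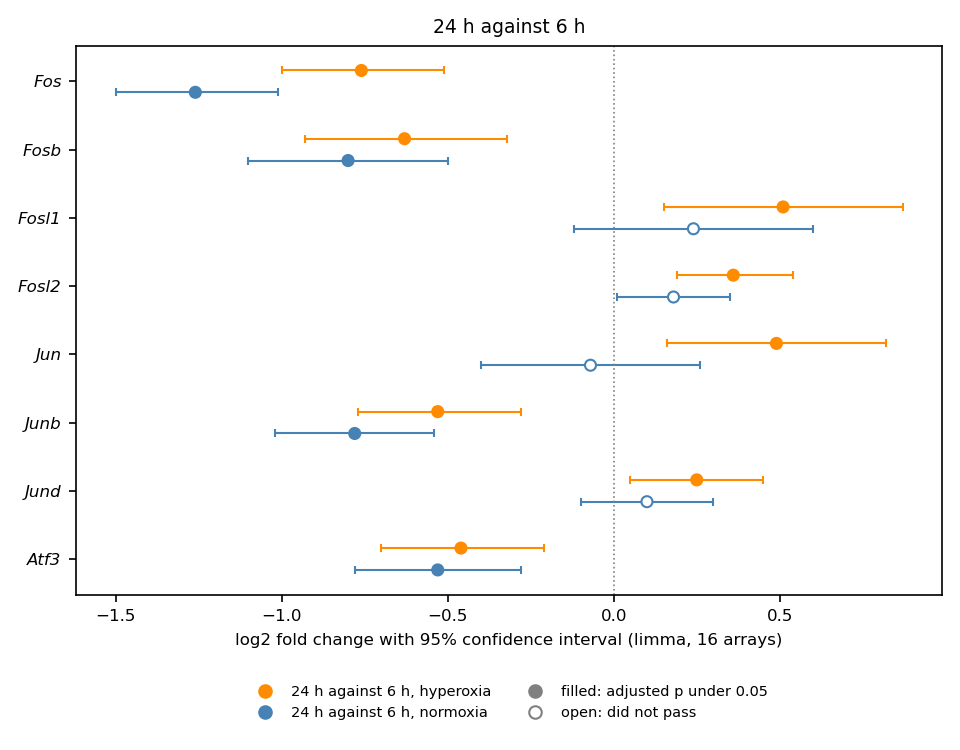
Log2 fold changes of 24 h over 6 h (x axis, with 95% confidence intervals) of the 8 genes in hyperoxia (orange) and normoxia (blue), from the limma fit of all 16 arrays. Fos, Fosb, Junb and Atf3 lie below 0 in both oxygen groups, and Fosl1, Fosl2, Jun and Jund passed as higher in hyperoxia.

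Fos averaged -0.25 ± 0.11 in hyperoxia and -1.13 ± 0.19 in normoxia at 24 h, and 0.51 ± 0.22 in hyperoxia and 0.13 ± 0.11 in normoxia at 6 h. From the highest mean down its order was hyperoxia at 6 h, normoxia at 6 h, hyperoxia at 24 h and normoxia at 24 h, and no neighbours in this order overlapped. Fosb and Junb stood in the same order. Their neighbours overlapped except for hyperoxia against normoxia at 24 h, with means of 0.37 ± 0.19 and -0.11 ± 0.23 for Fosb and of 0.60 ± 0.09 and 0.14 ± 0.19 for Junb. Atf3 had this order too, but its only gap lay between hyperoxia at 24 h (1.72 ± 0.21) and normoxia at 6 h (2.07 ± 0.08).

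Fosl1, Fosl2, Jun and Jund were each highest in hyperoxia at 24 h. Fosl1 averaged 2.35 ± 0.17 in hyperoxia and 1.57 ± 0.20 in normoxia at 24 h, and 1.84 ± 0.41 in hyperoxia and 1.34 ± 0.14 in normoxia at 6 h. Its hyperoxia groups came before its normoxia groups in order, and all neighbours overlapped. For Fosl2 the order was hyperoxia at 24 h (3.88 ± 0.12), normoxia at 24 h (3.62 ± 0.12), hyperoxia at 6 h (3.52 ± 0.11) and normoxia at 6 h (3.44 ± 0.05), again with overlap throughout. Jun averaged 4.49 ± 0.18 in hyperoxia at 24 h, and its other 3 groups lay within 4.00 to 4.15 and overlapped. Jund averaged 4.65 ± 0.07 in hyperoxia at 24 h, apart from normoxia at 24 h (4.49 ± 0.07), and its other neighbours overlapped.

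The second, dimmer Fosl2 probe did not repeat the pattern over time. The brighter probe lies at chr5:32460076-32460135 of mm9 and the dimmer at chr5:32455088-32455147. The dimmer probe averaged -3.41 ± 0.12 in hyperoxia at 24 h, -3.79 ± 0.12 in normoxia at 24 h, -3.46 ± 0.18 in hyperoxia at 6 h and -3.46 ± 0.01 in normoxia at 6 h. Its hyperoxia arrays at 24 h lay above all its normoxia arrays at 24 h (0.38 ± 0.09, limma adjusted p = 0.00663). Over time in normoxia it changed by -0.32 (limma adjusted p = 0.0116), against 0.18 for the brighter probe, and in hyperoxia by 0.05 (adjusted p = 0.679), against 0.36. Both probes were higher in hyperoxia at 24 h, and over time in normoxia the dimmer probe passed as lower while the brighter, with the opposite sign, did not pass.

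**Figure D4:**
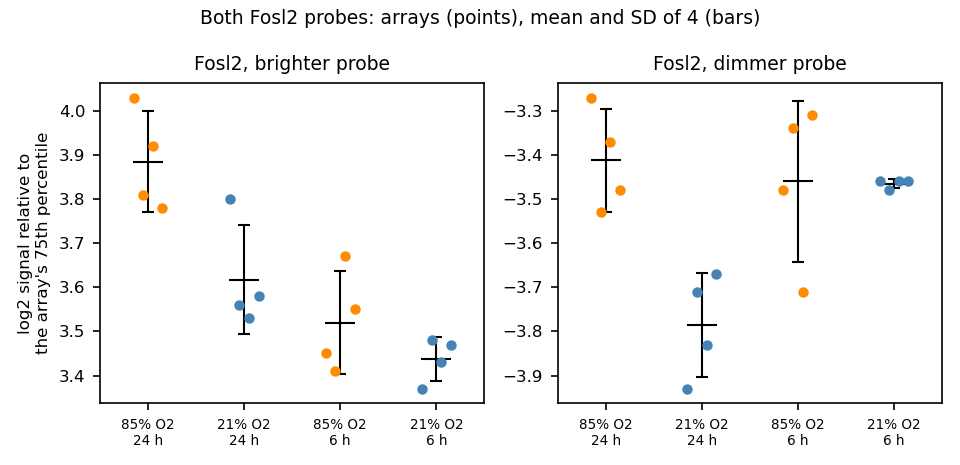
Log2 signal relative to the array's 75th percentile (y axis) of the brighter (left) and dimmer (right) Fosl2 probe in hyperoxia (85% O2, orange) and normoxia (21% O2, blue) at 24 h and at 6 h. Points are arrays and bars the mean and SD of 4; in both panels hyperoxia is above normoxia at 24 h, and only in the left panel is normoxia at 24 h above normoxia at 6 h.

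Other genes of the pathway were read from lists that were chosen with earlier results of these data known. Of 13 other basic leucine zipper partners, 1 rose and 3 fell in hyperoxia at 24 h, with a median log2 fold change of -0.17. Of all genes 15.5% rose and 12.8% fell in this comparison, 28.3% in all. Jdp2, a repressor that dimerises with Jun proteins, averaged 2.43 ± 0.31 in hyperoxia at 24 h and 3.51 ± 0.07 in normoxia at 24 h, a change of -1.07 ± 0.12 (limma adjusted p = 8.45e-06). Batf3, which also pairs with Jun proteins, averaged -2.41 ± 0.10 in hyperoxia and -1.40 ± 0.34 in normoxia, a change of -1.01 ± 0.14 (adjusted p = 0.0001). The stress factor gene Nfe2l1 changed by -0.50 ± 0.11 and the small Maf gene Mafk by 0.27 ± 0.09 (adjusted p = 0.00249 and 0.0315). Of the called genes of this list, 3 moved against the direction of the Fos genes and Mafk moved with it, while 9 of the 13 did not pass. Under quantile normalization, and with the values deposited by the authors, 3 passed as lower and none as higher, so the Mafk call ended. In the difference between times, Jdp2, Batf3 and Nfe2l1 passed as lower (-0.99, -0.82 and -0.51, limma adjusted p = 0.00129, 0.0168 and 0.037), where 12.3% of all genes passed.

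Of 18 genes of the MAP kinase cascade, 3 rose and 1 fell in hyperoxia at 24 h, with a median of 0.11. For this list and the next 2, the shares of all genes were again 15.5% higher and 12.8% lower, 28.3% in all. Mapk10, a JNK gene, was well above background on 4 arrays of hyperoxia and 3 of normoxia at 24 h and rose by 0.76 ± 0.19, and Map2k4, which encodes a kinase upstream of JNK, by 0.31 ± 0.09 (limma adjusted p = 0.00667 and 0.0166). The p38 gene Mapk11 changed by -0.49 ± 0.10 (adjusted p = 0.00182). Without normoxia 24 h replicate 3 the list held 2 calls in place of 4. Among 8 genes for SRF, its partners and CREB factors, Creb1 (0.44 ± 0.08), Crem (0.43 ± 0.08) and the SRF coactivator gene Mrtfb (0.36 ± 0.13) rose and none fell (adjusted p = 0.00061, 0.000741 and 0.0479). Of 7 genes for turnover and cofactors, 2 rose: Fbxw7, which encodes the ubiquitin ligase subunit that targets Jun, by 0.73 ± 0.07, and Cops5, which encodes the Jun-binding subunit of the COP9 signalosome, by 0.33 ± 0.07 (adjusted p = 2.74e-06 and 0.00158). The medians of these 2 lists were 0.12 and 0.02.

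Genes known from other studies as AP-1 targets are read for their own values, since each also has other regulators. Of 26 listed 25 were tested, and 9 rose and 1 fell in hyperoxia at 24 h, a median of 0.22, where 15.5% of all genes rose and 12.8% fell. Mmp3, the stromelysin gene, averaged 0.22 ± 0.23 in hyperoxia at 24 h and -1.15 ± 0.47 in normoxia at 24 h, a change of 1.37 ± 0.34 (limma adjusted p = 0.00754). The collagenase gene Mmp13 changed by 0.92 ± 0.23 (adjusted p = 0.00732). Of the 6 listed matrix metalloproteinase genes, Mmp10 (0.84) and Mmp12 (0.82) also rose (adjusted p = 0.0163 and 0.0393), and Mmp9 (-0.20) and Mmp14 (0.20) did not pass (adjusted p = 0.493 and 0.474). Mmp12 was well above background on 4 of 4 hyperoxia arrays and 1 of 4 normoxia arrays at 24 h. Ptgs2, the prostaglandin synthase of inflammation, averaged 6.43 ± 0.09 in hyperoxia and 5.34 ± 0.24 in normoxia, a change of 1.09 ± 0.12, and the cytokine gene Il11 changed by 1.00 ± 0.12 (adjusted p = 9.09e-06 and 2.58e-05). Spp1, the osteopontin gene, was the 1 that fell (-0.42 ± 0.12, adjusted p = 0.0184). Ptgs2 and Il11 also passed in the difference between times, by 0.82 and 0.95 (limma adjusted p = 0.00536 and 0.00244), where 12.3% of all genes passed. With the replicate number within each time as a block 8 of the 25 passed there, as did 4183 of all 25397 genes tested. At 6 h 0 of the 25 passed.

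Other immediate-early genes gave the highest median of the pathway lists at 24 h after that of the 8 genes themselves, 0.36. Of 21 tested, 9 were higher and 2 lower, against 15.5% and 12.8% of all genes. Dusp1, the phosphatase that switches off JNK and p38, averaged 2.89 ± 0.11 in hyperoxia at 24 h and 1.40 ± 0.16 in normoxia at 24 h, a change of 1.5 ± 0.17 (limma adjusted p = 1.33e-05). Btg2, an antiproliferative gene and p53 target, changed by 1.49 ± 0.11, Ier3 by 1.00 ± 0.13 and the zinc finger factor gene Egr1 by 0.98 ± 0.13 (adjusted p = 1.63e-07, 4.74e-05 and 5.44e-05). Klf4 and Myc, named here because only 2 fell, changed by -0.76 ± 0.17 and -0.37 ± 0.11 (adjusted p = 0.00336 and 0.0154). At 6 h Btg2 was the 1 listed gene outside the family that passed in any of these lists, by 0.64 (limma adjusted p = 0.02). It no longer passed without any 1 of the 4 normoxia 6 h arrays or without hyperoxia 6 h replicate 1 or 2. In the difference between times 5 of the 21 passed, all higher: Dusp1 (1.29), Egr1 (0.97), Ier3 (0.91), Btg2 (0.85) and Zfp36 (0.48), with limma adjusted p from 0.00237 to 0.0357. The share of all genes that passed there was 12.3%.

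Atf3 is also a target of the integrated stress response, in which Atf4 drives genes of amino acid supply. Of 8 genes of that response, 1 rose and 5 fell in hyperoxia at 24 h, a median of -0.44, beside a log2 fold change of 0.17 for Atf3 that did not pass. Of all genes 15.5% rose and 12.8% fell. Trib3 averaged 4.43 ± 0.67 in hyperoxia at 24 h and 6.09 ± 0.09 in normoxia at 24 h, a change of -1.66 ± 0.25 (limma adjusted p = 0.000142). Chac1 changed by -0.98 ± 0.29, the asparagine synthetase gene Asns by -0.78 ± 0.13 and Vldlr by -0.43 (adjusted p = 0.0194, 0.000376 and 0.0381). Atf4 itself changed by -0.35 ± 0.09 (adjusted p = 0.0087), and Sesn2 rose by 0.31 ± 0.06 (adjusted p = 0.00145). Over time 7 of the 8 passed as higher at 24 h in hyperoxia and 8 of 8 in normoxia, against 25.0% and 20.6% of all genes. Their medians were 0.65 and 1.25, whereas Atf3 was lower in both. Ddit3, chosen after its values were seen, was higher by 2.52 in hyperoxia and 2.61 in normoxia (limma adjusted p = 5.97e-07 and 3.75e-06).

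**Figure D5:**
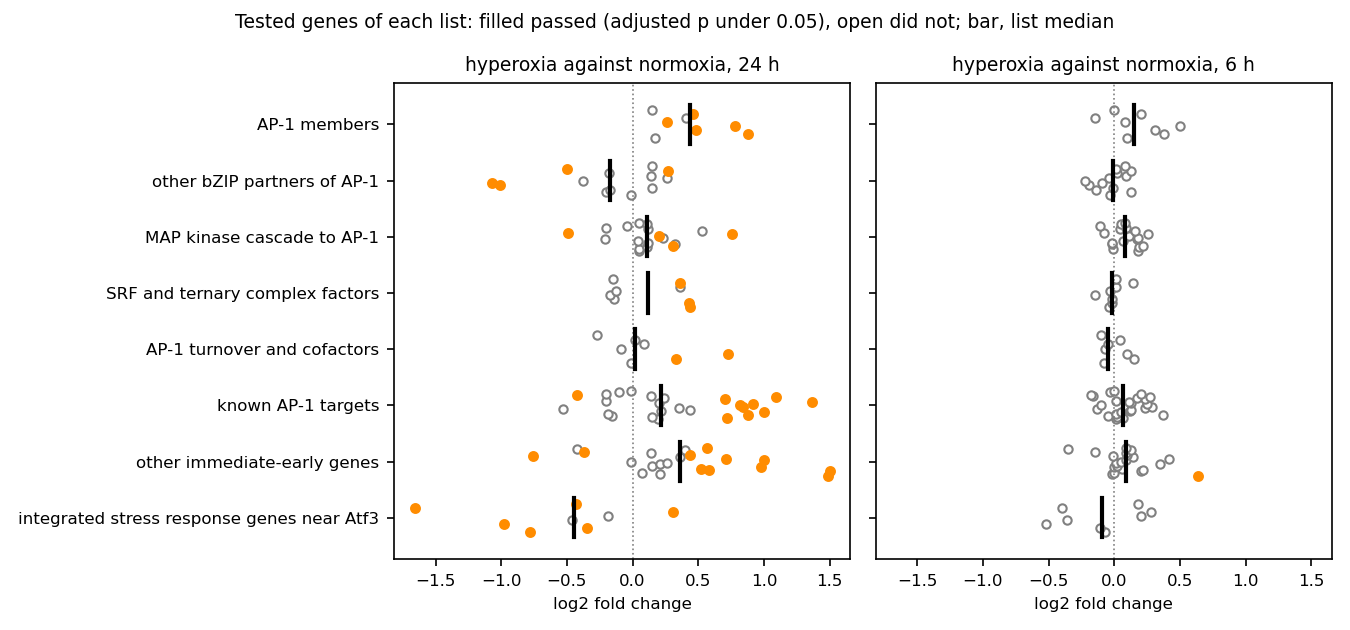
Log2 fold changes of hyperoxia over normoxia (x axis) of the tested genes of the AP-1 family and of 7 lists of related genes, at 24 h (left) and 6 h (right). Filled points passed the adjusted limma threshold, open points did not, and black bars are list medians; at 24 h the bar of the 8 AP-1 genes stands at 0.44 and that of the integrated stress response genes at -0.44.

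Markers of cell types moved beside these results, and their part in them was not tested. In hyperoxia at 24 h the type II markers Lamp3, Sftpb, Etv5, Muc1 and Lpcat1 fell (-1.03, -0.95, -0.79, -0.68 and -0.28) and Abca3 rose (0.68), with 5 not called. Of all genes 15.5% rose and 12.8% fell in this comparison. The mean over the type II list was -0.83 to -0.22 on hyperoxia arrays and -0.59 to -0.10 on normoxia arrays at 24 h, against 0.54 to 0.99 on hyperoxia arrays and 0.47 to 0.77 on normoxia arrays at 6 h. Of 11 tested type II markers, 8 passed as lower at 24 h than at 6 h in hyperoxia and none as higher. In normoxia 7 passed as lower and 1 as higher. None of the 8 fibroblast and smooth muscle markers passed between oxygen groups at 24 h, and 5 of 8 passed as higher at 24 h than at 6 h within each oxygen group. Over the same interval 2 of 2 tested club cell markers were lower in each oxygen group (Scgb1a1 changed by -5.02 in hyperoxia and by -5.66 in normoxia), as were 2 of 3 tested ciliated cell markers and 3 of 7 macrophage markers. The macrophage marker Cd68 was higher in hyperoxia (0.65) and did not pass in normoxia (-0.14). Of 4 neutrophil markers, 1 was lower and 1 higher in each oxygen group. S100a8 changed by -2.23 in hyperoxia and by -3.59 in normoxia, and Elane by 0.83 and 0.90. Over time 25.0% of all genes passed as higher and 27.3% as lower in hyperoxia, and 20.6% and 23.5% in normoxia. Outside type II cells, 1 of 7 macrophage markers (Cd68, 1.02), 1 of 4 neutrophil markers (S100a8, 1.75), 1 of 2 tested club cell markers (Scgb1a1, 0.78) and 1 of 3 tested ciliated cell markers (Tekt1, 1.04) rose in hyperoxia at 24 h, and no endothelial or lymphocyte marker did. S100a8 was well above background on 4 of 4 hyperoxia arrays and 1 of 4 normoxia arrays at 24 h, and Tekt1 on 4 and 2. The mean over the neutrophil list was -0.53 to 0.03 on hyperoxia arrays and -1.14 to -0.41 on normoxia arrays at 24 h. Over the macrophage list it was -1.73 to -0.90 on hyperoxia arrays and -2.17 to -1.20 on normoxia arrays at 24 h.

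The 3 genes most like each member were taken as those with the smallest root mean square difference from it over the 16 arrays, after centring each gene on its own mean, among 17288 genes with a symbol. The distance is taken over all 16 arrays and does not single out the effect of oxygen. For Fos these were 1810019D21Rik and 5830403F22Rik (0.16 each) and Lcor (0.18), and for Fosb Pde11a (0.18), Magi2 (0.19) and Zbtb42 (0.20). At 24 h Fosb averaged 0.37 in hyperoxia and -0.11 in normoxia. Its closest genes averaged -2.73 and -2.84 (Pde11a), -3.80 and -3.95 (Magi2) and -1.53 and -1.96 (Zbtb42). Zbtb42 (0.12) was also among those of Junb, with Il31ra (0.11) and Cyth1 (0.15). Fosl1 was closest to Ier5 and Zfp385a (0.16 each) and 2210417A02Rik (0.17), Ier5 being one of the listed immediate-early genes. Jun was closest to Kdm5a and Zfp62 (0.13 each) and Rnls (0.14), and Atf3 to Erbb2 (0.12), Zfp934 and Pacrgl (0.13 each). Fosl2 had Smim8 and Arih1 (0.07 each) and 2610524H06Rik (0.08), and Jund had Stat6 and Zmat5 (0.07 each) and Yipf3 (0.08), smaller distances for genes that themselves varied less, by 0.20 and 0.16 (SD over 16 arrays) against 0.65 for Fos. No other member of the family was among the 3 closest genes of any member.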

How the data were processed

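RNA was measured on 16 one-colour Agilent arrays, 1 file each. Per the file headers, the deposited processed signal is a spot intensity from which Feature Extraction 10.7.3.1 had removed background and spatial trend (protocol GE1_107_Sep09, probe coordinates of mm9), with no scaling between arrays. The raw spot and background intensity that the authors deposited served 1 alternative. The authors deposited log2 values of 43964 probes in a table, with a median of 7.19 in every column and correlations of 0.997 to 1 with the log2 processed signal. Its scale is therefore log2, its normalization is not given in the sources used here, and it served as an alternative. No spot was saturated.

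From the processed signal, control spots and, where another spot of the probe remained, outlier-marked spots (106 to 200 per array) were left out and spots of a probe averaged (55681 probes). Values were taken as log2 and the array's 75th percentile subtracted. Each gene was read by its brightest probe over 16 arrays and entered the test where it stood well above background on at least 3 of the 4 arrays of any group (25397 genes, 17289 with a RefSeq symbol). Groups were assigned from the labels. Groups were compared with limma 3.58.1 in R 4.3.3, with 1 mean per group (12 residual and 2.23 prior degrees of freedom), two-sided tests and Benjamini-Hochberg adjustment over all genes. The fit was tested on simulated data. Alternatives were quantile and median scaling, normexp correction (offset 50), the authors' table, other filters and probe choices, array weights, the 8 arrays compared alone, replicate blocks and each array left out.

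Members of the family and all gene lists were chosen with earlier results of these data known. Named beside the 8 genes were up to 4 called genes with the largest change per list and oxygen comparison (further called or listed genes, such as Spp1, Mmp10, Mmp12, Mmp9, Mmp14, Klf4, Myc, Zfp36, Atf4, Sesn2 and Ddit3, and genes of the difference between times were chosen after their values were seen), and the 3 genes most like each member. Fasl and Nr4a3 failed the filter. The values of 1 called gene of the MAP kinase list are not reported here. Replicate numbers are slide columns. Deviations of same-numbered hyperoxia and normoxia arrays correlated at 0.25, 0.34, 0.24 and 0.26 at 24 h. At 6 h the correlations were 0.25, 0.25, 0.35 and 0.09, and between times 0.00 to 0.08. Whether same-numbered arrays share a culture or only a slide column cannot be told apart here. The main fit had no replicate block, and results with a block are given as an alternative.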

Additional observations from a re-analysis of the deposited data

Results flagged for a closer look

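In 1 of 32 sets of 4 arrays tested for an outlying array, Jun in normoxia at 24 h, replicate 3 measured 4.35 and the nearest array 4.03, a gap of 0.837 of the range of the group. Chance flags about 1 such set in 20. The same array held the lowest Fos value of normoxia at 24 h, -1.40, and the lowest share of probes well above background, 53.6%. Without it Jun was higher in hyperoxia at 24 h by 0.50 (limma adjusted p = 0.0327), against 0.41 (adjusted p = 0.0596) with it.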

How the results depend on the processing

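Of the 8 genes, 5 passed in hyperoxia at 24 h here, and 4 to 5 did with 1 array left out. With 1 array left out the counts were 0 to 1 in hyperoxia at 6 h, 6 to 8 over time in hyperoxia, 4 to 4 over time in normoxia and 0 to 1 for the difference between times. Array weights gave 1 at 6 h (Fosl1, 0.66, adjusted p = 0.0263) and 2 for the difference (Fos and Jun), where none passed here. The difference gave 1 under normexp correction (Jun, adjusted p = 0.0379), 1 with only probes well above background on all 16 arrays (Fos, adjusted p = 0.0439) and 1 with the replicate number within each time as a block (Fos, adjusted p = 0.0178). Median scaling gave 7 over time in normoxia, 3 higher and 4 lower, against 4, since it moves all genes up.

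Signs turned for values that had not passed here: Jun over time in normoxia was 0.14 under median scaling, Fosl2 over time in normoxia -0.07 as the mean of its probes and -0.32 by its dimmer probe, the Fosb difference between times -0.02 with array weights, and the Atf3 difference -0.0026 without hyperoxia 24 h replicate 4 (up to 0.17 with another array left out). Jund at 6 h was -0.08 and -0.04 without hyperoxia replicates 2 and 4, and -0.03 and -0.01 without normoxia replicates 2 and 4 (up to 0.08 otherwise). The cause was not tested for any of these changes. The call of Jun at 24 h was gained also under quantile (adjusted p = 0.0473), normexp (0.023), the authors' table (0.0472), array weights (0.0392), the strict filter (0.0462) and the 8 arrays alone (0.0296). That of Atf3 over time in hyperoxia ended under median scaling (-0.24, adjusted p = 0.114), and that of Jund in 6 of 11 settings: quantile scaling (adjusted p = 0.221), the authors' table (0.22), no filter (0.0563), array weights (0.0771), the 8 arrays alone (0.103) and the block over all 16 arrays (0.0541). That of Fosl1 over time in hyperoxia ended with the 8 arrays alone (0.0551). Of 840 recomputed log2 fold changes 782 kept sign and side of the threshold, 24 newly passed, 25 no longer passed and 9 changed sign, and of 700 list counts 35 moved by over 1.5 times. The replicate block within each time called 94, 8470 and 4183 genes at 6 h, at 24 h and in the difference, against 83, 7194 and 3113, and changed no call of the 8 genes beyond Jun at 24 h and the Fos difference. The number of arrays limits the precision.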
